A study of Mus musculus with 12 samples.

Results

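The receptors through which serotonin, noradrenaline and acetylcholine act on the cortex were followed in adult mouse whole cortex of 3 Tet1 genotypes. They are 43 genes of the 21713 symbols that stand on 1 row of the count table. They were taken by symbol (the serotonin receptors Htr1 to Htr7 apart from 1 symbol, the alpha and beta adrenergic receptors, the muscarinic receptors Chrm1 to Chrm5, and the alpha, beta, delta, epsilon and gamma subunits of the nicotinic receptor) and not by a threshold on their values. The set holds 12 serotonin receptors that couple to G proteins, 1 subunit of the serotonin-gated channel (Htr3b), 9 adrenergic receptors, 5 muscarinic receptors and 16 nicotinic subunits. WT (wild type), HxD and KO (knockout) had 4 libraries each, made from oligo-d(T)-selected RNA. Tet1 encodes an enzyme that oxidises 5-methylcytosine, the methylated base found mainly at CpG sites, and the study's title sets its catalytic against its non-catalytic functions. HxD is also the name of the short iron-binding motif in the catalytic domain of TET enzymes. The labels give neither the alleles nor the strain, sex or age beyond adult. Nothing in them ties a library to an animal, and p-values here therefore describe the variation among these 12 libraries, part of which may be technical.

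Serotonin, noradrenaline and acetylcholine reach the cortex mainly through axons whose cell bodies lie in the raphe nuclei, the locus coeruleus and the basal forebrain, so the cortex holds the receptors but few of the cells that make the transmitters. All of these receptors except the nicotinic subunits and Htr3b act through G proteins. Receptors coupled to Gi or Go lower cyclic AMP (Htr1 and Htr5 receptors, alpha-2 adrenergic receptors, Chrm2 and Chrm4), those coupled to Gs raise it (Htr4, Htr6, Htr7 and beta adrenergic receptors), and those coupled to Gq activate phospholipase C (Htr2 receptors, alpha-1 adrenergic receptors, Chrm1, Chrm3 and Chrm5). Nicotinic subunits assemble in fives into cation channels opened by acetylcholine.

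Library totals of estimated counts were 8310783 to 10915574 for WT, 7767787 to 10347432 for HxD and 5791642 to 9535409 for KO. Tet1 itself did not separate WT from KO, since both had 0 counts of it throughout, while HxD 1 to 4 had 1, 0, 63 and 67. Gapdh, a glycolytic gene of every cell, also had 0 counts in each of the 12 libraries, and a 0 is therefore given here only as a listed value. Markers of cortical excitatory neurons (12 genes, none at 0 throughout) summed to between 2687 and 4228 CPM (counts per 1000000, taken over the counts of the tested genes and scaled by the TMM factor) in each library. HxD 1 stood apart by hippocampal markers, with a sum of 310 CPM against at most 50.5 CPM in the libraries of WT and KO. Its choroid plexus markers summed to 279 CPM, against at most 42.1 CPM in WT and KO, and 247 CPM of this were Ttr alone. Without Ttr the choroid plexus sum was 32.1 CPM in HxD 1 and 27.3 CPM in HxD 3, and 4.55 to 16.5 CPM in the other libraries. HxD 3 had the highest sum of 13 markers of striatal projection neurons, 1143 CPM, against 295 to 680 CPM in WT and KO libraries. Where leaving out both libraries moved a receptor fold change given below by over 1.5 times, the value without them is given too. That fit kept WT 1 and WT 3, which had the higher WT values of Htr2c, Htr4 and Htr1d.

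Since TET1 acts at CpG sites, the 250 bases before the annotated start of a gene are shown for 4 receptor genes, from RefSeq on GRCm38.p6, read 5′ to 3′ on the strand of the gene with every CG in capitals. Chrna4 (chr2:181039178-181039427, minus strand) and Chrnb2 (chr3:89764633-89764882, minus strand) encode the subunits of the main nicotinic receptor of the brain and had 2 of the 3 smallest spreads between libraries among the receptor genes. Htr2a (chr14:74640624-74640873, plus strand) and Htr2c (chrX:146962263-146962512, plus strand) encode Gq-coupled serotonin receptors and varied more.
Chrna4: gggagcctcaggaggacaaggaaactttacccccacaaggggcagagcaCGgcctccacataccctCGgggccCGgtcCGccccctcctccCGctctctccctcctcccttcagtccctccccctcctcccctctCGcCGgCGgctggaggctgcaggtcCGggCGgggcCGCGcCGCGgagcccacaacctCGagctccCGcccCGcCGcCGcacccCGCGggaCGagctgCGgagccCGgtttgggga
Chrnb2: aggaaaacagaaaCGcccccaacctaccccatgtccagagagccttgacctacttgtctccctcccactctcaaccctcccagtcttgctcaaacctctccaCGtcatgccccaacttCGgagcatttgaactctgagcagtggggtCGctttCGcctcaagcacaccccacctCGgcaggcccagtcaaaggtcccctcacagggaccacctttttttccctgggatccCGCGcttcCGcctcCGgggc
Htr2a: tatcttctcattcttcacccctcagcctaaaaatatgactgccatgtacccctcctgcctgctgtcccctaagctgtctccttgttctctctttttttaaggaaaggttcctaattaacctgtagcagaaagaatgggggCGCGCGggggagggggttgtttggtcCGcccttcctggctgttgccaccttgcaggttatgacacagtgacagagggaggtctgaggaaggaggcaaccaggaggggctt
Htr2c: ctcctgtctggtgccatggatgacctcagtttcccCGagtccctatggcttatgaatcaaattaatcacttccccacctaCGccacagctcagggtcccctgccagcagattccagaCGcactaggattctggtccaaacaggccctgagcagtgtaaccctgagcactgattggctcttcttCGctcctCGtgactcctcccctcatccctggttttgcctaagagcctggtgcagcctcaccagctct
These stretches hold 24 CG in Chrna4, 10 in Chrnb2, 4 in Htr2a and 5 in Htr2c. Adra2c, with the other of the 3 smallest spreads, had 6 CG. Htr1d, which varied more than Htr2a, had 20 in the richer of its 2 promoters. A relation of CG number to spread was not tested. CG is its own reverse complement, so the count is the same on both strands. Of the 43 receptor genes, 32 matched the promoter table, with a median of 10 CG in 250 bases, against 6 over the 27025 genes of the table and 17 over the 9231 genes that were matched and tested. At least 15 CG stood in 11 of the 32 (34.4%), in 29.6% of all genes of the table and in 59.4% of the tested genes. The median was 13 for the 16 receptor genes that passed the filter on low counts and 7 for the 16 that did not. Methylation was not measured in these data.

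Levels in WT spanned a wide range. There were 5 receptor genes (Adra1b, Chrna9, Chrnd, Chrng and Htr3b) at 0 in every library, 14 reached 100 counts in at least 1 library, and 24 passed the filter on low counts: 8 serotonin, 7 adrenergic and 2 muscarinic receptors and 7 nicotinic subunits. To set genes side by side, CPM was divided by the length in kilobases of the longest annotated transcript. On that scale the highest WT means were those of Adra1d (25.9 ± 11.5 CPM per kb, SD, n = 4), Adrb1 (23.6 ± 5.99) and Chrm4 (18.3 ± 4.50). Chrna4 (15.2 ± 1.48 CPM per kb), Chrnb2 (14.6 ± 2.08) and Adra2c (14.01 ± 3.06) followed. Next came Htr2c (10.6 ± 5.04 CPM per kb), Htr2a (9.72 ± 6.87), Htr1a (8.27 ± 3.28) and Htr5a (6.58 ± 0.765), then Chrna7 (6.03 ± 1.20), Adra2a (5.44 ± 1.15) and Chrm1 (4.55 ± 0.824). Down to Chrm1, each gene's mean lay within the larger SD of its own and its neighbour's, so the order between neighbours is not resolved. All other receptor genes had WT means of at most 1.83 CPM per kb, the value of Htr1f. The annotated transcripts of Chrm4 and Adra1d are short, 1440 and 1899 bases, which raises their values on this scale.

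**Figure D1:**
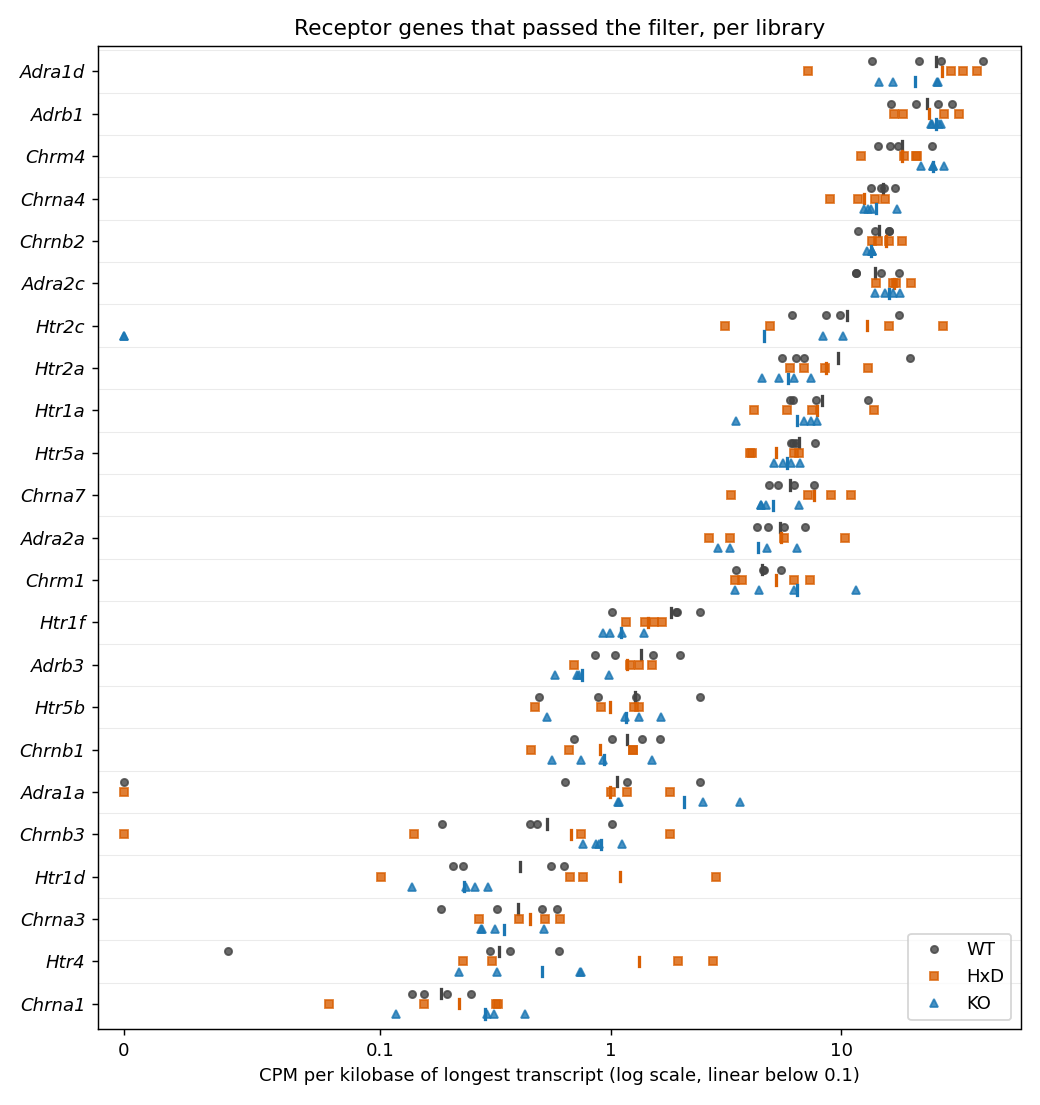
Level of 23 of the 24 receptor genes that passed the filter on low counts, in CPM per kilobase of the longest annotated transcript on a log axis that is linear below 0.1. Points are libraries, coloured by genotype, short bars are genotype means, and genes run from the highest to the lowest WT mean; the points of Htr2c reach from 0 in KO 3 and KO 4 up to HxD 3, while those of Chrnb2 lie close together.

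None of the 24 tested receptor genes passed an adjusted p of 0.05 in edgeR's quasi-likelihood test in any comparison, where p was adjusted by Benjamini-Hochberg over 11693 genes. Over all tested genes the called share was 0.898% (105 genes) in HxD against WT. It was 0.154% (18 genes) in KO against WT and 1.02% (119 genes) in KO against HxD, so a count of 0 among 24 is near the background. At an unadjusted p below 0.05 there were 0 receptor genes in HxD against WT (4.05% of all genes), 3 in KO against WT (9.48%) and 2 in KO against HxD (11.6%). DESeq2's Wald test called 0 receptor genes in each comparison, where it called 1.47%, 2.46% and 3.39% of all genes. At an unadjusted p below 0.05 it had 1, 3 and 2 receptor genes, beside 5.4%, 11.7% and 14.2% of all genes. By limma-voom 0 receptor genes were called, beside 0.701%, 0% and 0.718% of all genes, and 0, 1 and 1 had an unadjusted p below 0.05, beside 4.7%, 9.79% and 11.3%. The smallest adjusted p by edgeR was 0.999, 0.482 and 0.346. The median log2 fold change of the 24 was 0.02 in HxD against WT, -0.15 in KO against WT and -0.15 in KO against HxD, beside 0.01, 0.01 and 0.00 for all genes. With single libraries left out, the filter was run anew and 27 or 28 receptor genes passed, so the set of genes changed too. The median then ranged from -0.02 to 0.16, from -0.21 to -0.06 (the last without WT 3) and from -0.23 to 0.00 (the last without HxD 3). It was 0.02, -0.28 and -0.27 with no filter, which adds genes of few counts. The 3 comparisons share libraries in pairs (WT, HxD or KO). Above 0 were 13, 8 and 11 of the 24, against 51.3%, 50.9% and 50.2% of all genes. A miss of the threshold does not show equal levels: the 95% interval of the fold change lay within 2-fold in both directions for 11, 8 and 7 of the 24. The plot of fold changes shows how the width of the interval differs from gene to gene.

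**Figure D2:**
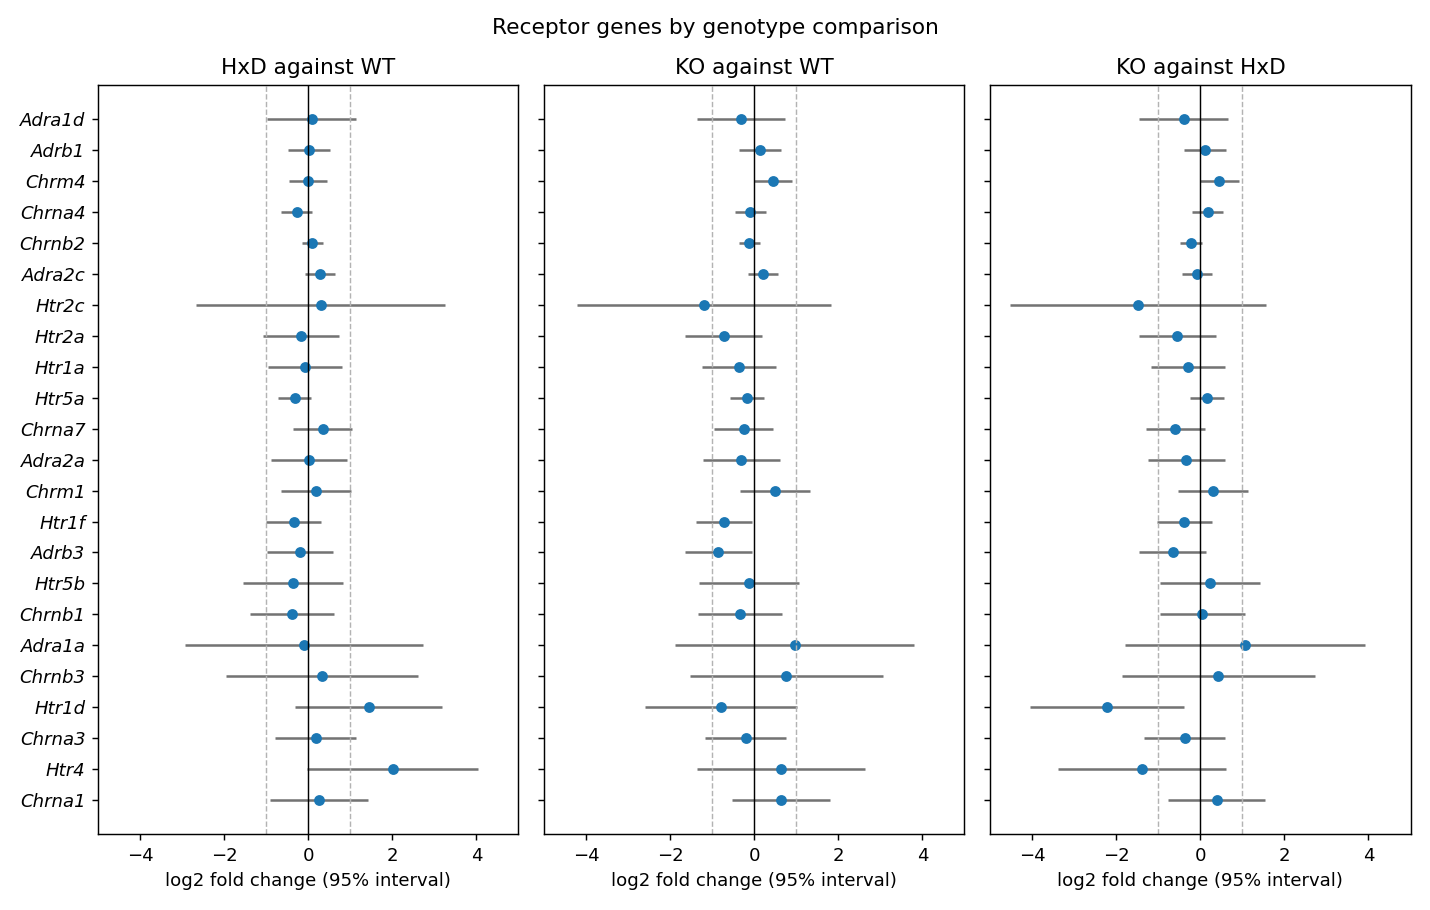
Log2 fold change of 23 of the 24 tested receptor genes with 95% intervals from the edgeR fit over 12 libraries, in 1 panel for each pair of genotypes. The solid line marks 0 and the dashed lines a 2-fold change; the intervals of Chrnb2 are among the narrowest, and those of Htr2c, from -2.67 to 3.26 in HxD against WT, are wide.

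Serotonin receptors differed widely in their spread between libraries. Htr5a, coupled to Gi, had 34.3, 41.4, 33.2 and 32.5 CPM in WT 1 to 4. Its values were 22.2, 35.5, 21.5 and 33.6 CPM in HxD 1 to 4 and 32.5, 35.7, 27.4 and 30.2 CPM in KO 1 to 4. HxD 1 and HxD 3 lay below all other libraries, while HxD 2 and HxD 4 lay within the WT range. The log2 fold change in HxD against WT was -0.33 ± 0.18 (SE), with an edgeR adjusted p of 0.999, and -0.04 without HxD 1 and HxD 3. Htr1a, the Gi-coupled receptor that also acts as an autoreceptor on raphe neurons, had 27.0, 34.9, 58.5 and 27.9 CPM in WT 1 to 4. It had 62.3, 18.8, 33.6 and 26.0 CPM in HxD 1 to 4, and 15.8, 33.3, 30.9 and 35.4 CPM in KO 1 to 4. The highest values were those of HxD 1 and WT 3, and the 3 groups overlapped.

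Htr2a, the receptor through which classical hallucinogens act, had 38.9, 112, 35.9 and 31.1 CPM in WT 1 to 4. Values were 47.7, 33.7, 38.9 and 73.3 CPM in HxD 1 to 4 and 41.4, 25.4, 30.3 and 35.0 CPM in KO 1 to 4. WT 2 stood far above the other WT libraries, and all groups overlapped. Its fitted log2 fold change in KO against WT was -0.72 ± 0.41 (edgeR adjusted p = 0.64), and -0.11 when WT 2 was left out.

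Htr2c, whose transcript is abundant in choroid plexus and also made by neurons, was the only one of the 14 receptor genes reaching 100 counts whose row jumped between 0 and at least 100 counts within a genotype. Such jumps occurred in 10% of all 9250 rows that reach 100 counts. Estimated counts of Htr2c were 424, 314, 714 and 417 in WT 1 to 4, 735, 118, 1152 and 246 in HxD 1 to 4, and 291, 305, 0 and 0 in KO 1 to 4. In CPM these were 48.4, 29.9, 86.8 and 41.8 in WT, 79.1, 15.3, 135 and 23.996 in HxD, and 49.8, 40.7, 0 and 0 in KO. HxD 3 was highest, KO 3 and KO 4 were listed at 0, and KO 1 and KO 2 lay within the WT range. By edgeR the log2 fold change was 0.29 ± 1.34 in HxD against WT, -1.19 ± 1.37 in KO against WT and -1.49 ± 1.38 in KO against HxD. None passed the edgeR test, and the interval in KO against WT ran from -4.22 to 1.83. Without HxD 1 and HxD 3, libraries left out after their values were seen, the log2 fold change was -1.40 in HxD against WT and 0.20 in KO against HxD, both with the sign turned. WT 1 and WT 3, the highest WT libraries for Htr2c, were kept there, so the groups were not trimmed alike.

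In HxD against WT the largest fitted fold changes were those of the low serotonin receptors Htr4 and Htr1d. Htr4, coupled to Gs, had 15, 2, 23 and 14 counts in WT 1 to 4, 121, 11, 78 and 11 in HxD 1 to 4, and 20, 26, 14 and 6 in KO 1 to 4. The values of HxD 1 and HxD 3 were the highest of the 12, and those of HxD 2 and HxD 4 lay within the WT range. The log2 fold change in HxD against WT was 2.01 ± 0.92 (95% interval -0.02 to 4.04, edgeR adjusted p = 0.999). In KO against HxD it was -1.38 ± 0.90 (edgeR adjusted p = 0.598). Without HxD 1 and HxD 3 these values were -0.29 and 0.90.

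Htr1d, a Gi-coupled receptor of nerve terminals, had 14, 7, 15 and 6 counts in WT 1 to 4, 18, 17, 71 and 3 in HxD 1 to 4, and 4, 3, 7 and 5 in KO 1 to 4. HxD 3 alone lay far above the rest, and HxD 4 had as few counts as the lowest KO library. On the log2 scale the fold change in KO against HxD was -2.22 ± 0.83, with an edgeR unadjusted p of 0.0217 and an adjusted p of 0.346. It lay between -2.61 and -1.12 when single libraries were left out, and in HxD against WT the value was 1.44 ± 0.79 with a range of 0.33 to 1.82. Without HxD 1 and HxD 3 these were -0.87 and 0.08. Htr1f, also coupled to Gi, had 2.62, 4.95, 6.32 and 5.01 CPM in WT 1 to 4, 3.01, 3.64, 3.98 and 4.29 CPM in HxD 1 to 4, and 2.57, 3.61, 2.89 and 2.39 CPM in KO 1 to 4. WT 2 to 4 were above all KO libraries, but WT 1 was within their range. The log2 fold change was -0.72 ± 0.30 in KO against WT (edgeR unadjusted p = 0.0359, adjusted p = 0.482) and -0.34 ± 0.30 in HxD against WT. The latter was -0.17 without WT 3 and -0.55 without WT 1.

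Of the remaining serotonin genes, Htr5b passed the filter with 2.48 ± 1.64, 1.92 ± 0.765 and 2.26 ± 0.914 CPM in WT, HxD and KO. Htr1b, Htr2b, Htr6 and Htr7 did not pass it, and the highest count of any of them in a library was 17, of Htr7. Htr7 couples to Gs, as does Htr6. Summed over the 12 genes, serotonin receptors made up 190 ± 44.5 CPM in WT, 191 ± 64.2 CPM in HxD and 125 ± 26.3 CPM in KO, and the libraries of the 3 groups overlapped. Within the sum, Htr2c and Htr2a had the largest differences in mean between WT and KO. Htr2c, listed at 0 in KO 3 and KO 4, had means of 51.7, 63.3 and 22.6 CPM in WT, HxD and KO. Htr2a, with its high WT 2, had 54.5, 48.4 and 33.0 CPM. In the same order, cortical excitatory markers summed to 3576 ± 492, 3447 ± 480 and 2959 ± 204 CPM and striatal markers to 480.3 ± 133, 669 ± 367 and 354 ± 67.7 CPM. Oligodendrocyte markers summed to 2663 ± 1322, 2367 ± 1251 and 3425 ± 248 CPM and thalamic and habenular markers to 19.6 ± 7.24, 9.40 ± 0.627 and 9.32 ± 1.36 CPM. The higher thalamic and habenular sum of WT came mainly from Prkcd. WT 1, WT 3 and WT 4 had 11.4, 14.1 and 10.8 CPM of Prkcd, and WT 2 had 0.571 CPM. It was listed at 0 throughout HxD, and no KO library exceeded 1.20 CPM. Lef1, from the same list, overlapped between genotypes, with WT libraries at 4.79 to 11.2 CPM, HxD libraries at 6.79 to 7.71 CPM and KO libraries at 5.13 to 8.71 CPM. Slc17a7 made up most of the cortical excitatory sum. WT libraries held 2148 to 3221 CPM of it, HxD libraries 2090 to 2828 CPM and KO libraries 1822 to 2266 CPM. Other markers of that list differed in direction between WT and KO. Bcl11b ranged from 113 to 180 CPM for WT and from 75.3 to 106 CPM for KO, without overlap, as did 7.2% of all tested genes. In HxD 1 to 4 it had 224, 128, 208 and 127 CPM. Emx1 ranged from 28.9 to 49.4 CPM for WT and from 45.9 to 57.2 CPM for KO. The part of these cell types in the serotonin receptor sum was not tested. In bulk tissue, fewer cells of a type and less RNA per cell cannot be told apart.

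HxD 1 and HxD 3, with high Htr4 and Htr2c, also had high markers of tissue next to the cortex, while HxD 2 had high striatal markers and low values of both genes. The split of both genes was not confined to HxD. WT 1 and WT 3 had 48.4 and 86.8 CPM of Htr2c, against 29.9 and 41.8 CPM in WT 2 and WT 4. For Htr4 they had 15 and 23 counts, against 2 and 14. WT 1 also had the highest choroid plexus sum of WT and WT 3 the highest striatal sum. In KO the higher values of both genes were those of KO 1 and KO 2. The 13 striatal markers summed to 411, 425, 680 and 406 CPM in WT 1 to 4, 568, 705, 1143 and 261 CPM in HxD 1 to 4, and 439, 295, 304 and 377 CPM in KO 1 to 4, with Six3 alone at 0 throughout. The 11 choroid plexus markers summed to 42.1, 6.38, 9.84 and 8.32 CPM in WT, 279, 35.9, 29.5 and 5.66 CPM in HxD, and 11.8, 14.96, 5.99 and 11.1 CPM in KO, with Otx2 alone at 0 throughout. The 6 hippocampal markers summed to between 17.9 and 50.5 CPM in 11 libraries and to 310 CPM in HxD 1. HxD 3 thus held the highest striatal sum with the highest Htr2c and Htr1d, and HxD 1 the highest choroid plexus and hippocampal sums with the highest Htr4 and Htr1a. HxD 2 had the second-highest striatal sum and, through Ttr, a choroid plexus sum above that of HxD 3, with 15.3 CPM of Htr2c, the lowest value above 0, and 1.43 CPM of Htr4. Within KO, KO 3 and KO 4, where Htr2c was listed at 0, had choroid plexus sums of 5.99 and 11.1 CPM beside 11.8 and 14.96 CPM in KO 1 and KO 2. The part of these tissues in the receptor values was not tested. The bar charts of these genes and marker sums show the libraries side by side.

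**Figure D3:**
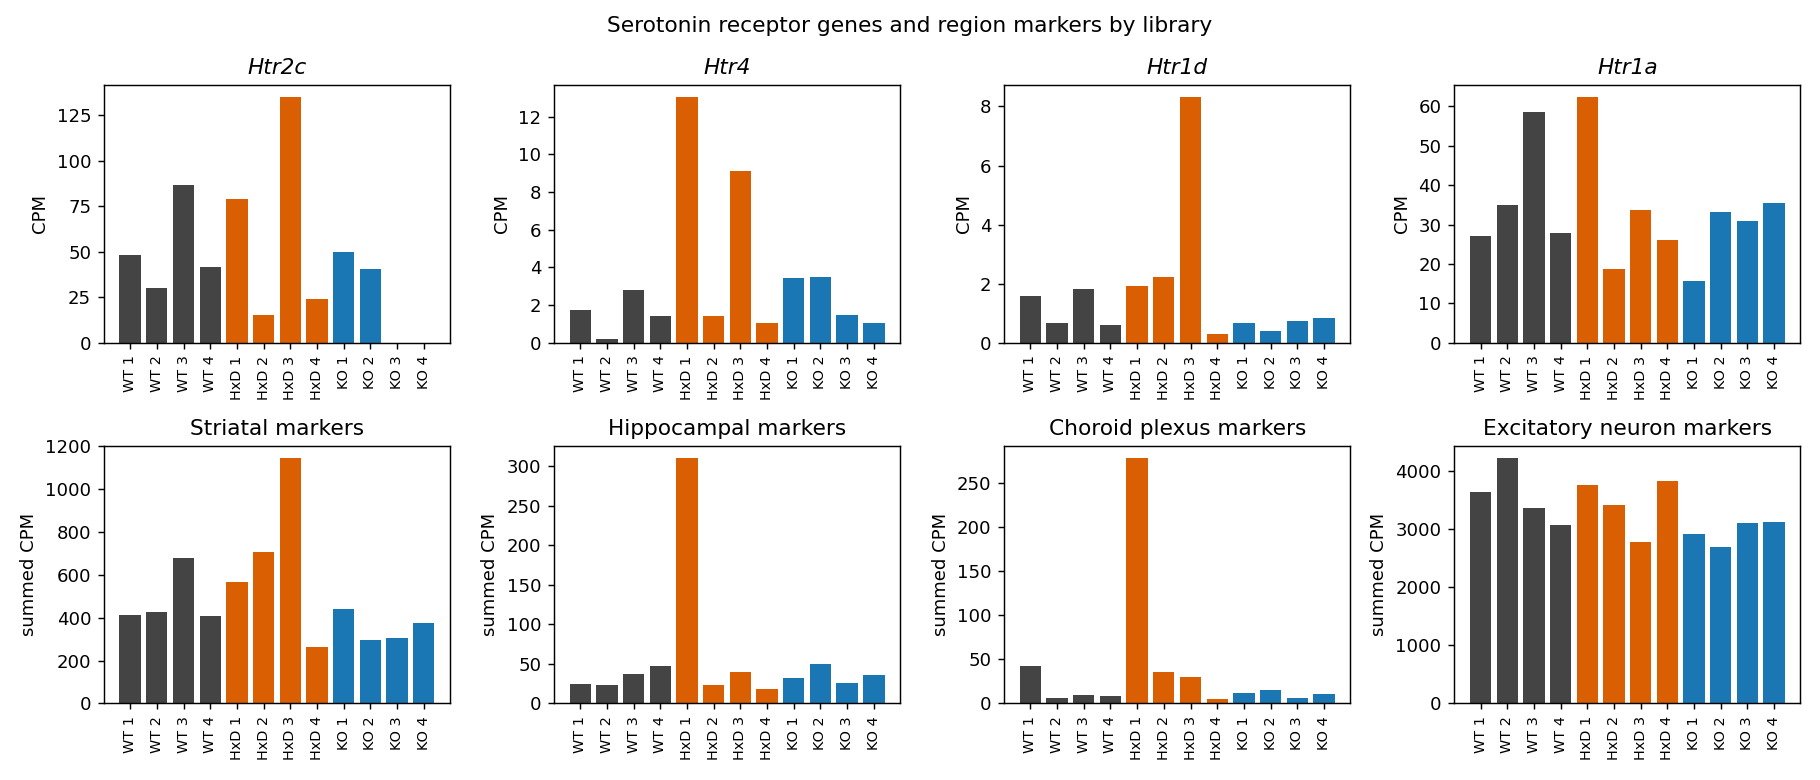
CPM of Htr2c, Htr4, Htr1d and Htr1a (top) and summed CPM of striatal, hippocampal, choroid plexus and cortical excitatory neuron markers (bottom), with 1 bar per library coloured by genotype. HxD 1 and HxD 3 hold the highest Htr4 values, HxD 1 the highest hippocampal (310 CPM) and choroid plexus (279 CPM) sums, and HxD 3 the highest striatal sum (1143 CPM).

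Adrenergic receptors were led by Adra1d and Adrb1. Adra1d, coupled to Gq, had 41.4, 78.0, 25.9 and 51.6 CPM in WT 1 to 4. It had 64.1, 57.1, 13.6 and 73.5 CPM in HxD 1 to 4 and 49.8, 31.8, 27.7 and 49.4 CPM in KO 1 to 4. The lowest value was that of HxD 3 and the highest that of WT 2, and all KO libraries lay within the WT range. Adrb1, the main beta receptor of cortical neurons, had 78.0, 89.0, 48.6 and 62.6 CPM in WT, 50.2, 95.4, 54.9 and 82.7 CPM in HxD, and 78.4, 73.3, 80.4 and 72.8 CPM in KO. Its genotype means of 69.6 ± 17.7, 70.8 ± 21.8 and 76.2 ± 3.77 CPM differed by less than the SD of WT and of HxD, and the KO libraries were close together inside the range of both other groups.

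Adra2c, a Gi-coupled receptor that limits transmitter release, had 51.6, 39.8, 61.7 and 39.9 CPM in WT 1 to 4, 57.6, 59.5, 69.1 and 48.7 CPM in HxD 1 to 4, and 62.3, 57.6, 48.1 and 53.5 CPM in KO 1 to 4. WT 2 and WT 4 were the lowest of the 12, and both mutant groups overlapped with WT. Log2 fold changes were 0.28 ± 0.16 in HxD against WT and 0.20 ± 0.16 in KO against WT (edgeR adjusted p = 0.999 and 0.781). The first was 0.16 without HxD 1 and HxD 3, 0.19 without HxD 3 and 0.42 without WT 3. The second was 0.10 without WT 2, 0.11 without WT 4 and 0.34 without WT 3. Adra2a, which carries out a like task on noradrenergic terminals and on dendritic spines, ranged from 20.9 to 33.7 CPM in WT, 12.9 to 50.5 CPM in HxD and 14.2 to 31.2 CPM in KO.

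Adrb3, a beta receptor best known from fat tissue, had 5.59, 4.28, 2.92 and 2.41 CPM in WT 1 to 4, 1.94, 3.38, 4.22 and 3.71 CPM in HxD 1 to 4, and 2.74, 2.004, 1.60 and 2.05 CPM in KO 1 to 4. KO 1 lay within the WT range and the other KO libraries below it. Its log2 fold change was -0.85 ± 0.36 in KO against WT (edgeR unadjusted p = 0.0374, adjusted p = 0.484) and -0.66 ± 0.36 in KO against HxD.

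Adra1a, a Gq-coupled receptor with 13 RefSeq transcripts, was scattered: its counts were 0, 53, 86 and 27 in WT 1 to 4, 72, 33, 43 and 0 in HxD 1 to 4, and 91, 35, 43 and 63 in KO 1 to 4. A library at 0 and a library above 70 counts thus stood side by side in WT and in HxD. Adra2b did not pass the filter, with at most 0.937 CPM. The family summed to 205 ± 28.9 CPM in WT, 219 ± 15.4 CPM in HxD and 207 ± 14.8 CPM in KO.

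Among muscarinic receptors only Chrm4 and Chrm1 passed the filter. Chrm4, coupled to Gi, had 25.4, 35.7, 20.9 and 23.6 CPM in WT 1 to 4, 17.7, 30.3, 26.9 and 30.7 CPM in HxD 1 to 4, and 40.4, 36.1, 32.1 and 36.2 CPM in KO 1 to 4. All KO libraries lay above all HxD libraries, and WT 2 reached into the KO range while the other WT libraries were below it. The log2 fold change was 0.45 ± 0.21 in KO against WT (edgeR unadjusted p = 0.0495, adjusted p = 0.525) and 0.45 ± 0.21 in KO against HxD (0.0494 and 0.428), the last being 0.25 without HxD 1 and HxD 3. Chrm4 was the only tested receptor gene whose groups did not overlap, in KO against HxD; 7.59% of all tested genes did not overlap there, 3.97% with KO higher. No receptor gene was without overlap in HxD against WT (3.48% of all genes) or in KO against WT (7.2%). Chrm4 is also a marker of striatal projection neurons of the direct pathway. Striatal markers summed to 261 to 1143 CPM in HxD and 295 to 439 CPM in KO libraries, and their part in the Chrm4 values was not tested. In RefSeq, Chrm4 overlaps Mdk. The strand setting of the counting is not given in the sources used here, so reads of overlapping genes cannot be assigned with certainty.

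Chrm1, the main Gq-coupled muscarinic receptor of cortical pyramidal neurons, had 29.1, 28.7, 21.9 and 34.5 CPM in WT 1 to 4, 39.2, 46.1, 23.4 and 21.7 CPM in HxD 1 to 4, and 27.7, 72.7, 21.7 and 39.3 CPM in KO 1 to 4. KO 2 was by far the highest library, and the other KO libraries spread over the range of WT and HxD. By edgeR the log2 fold change in KO against WT was 0.50 ± 0.38 (edgeR adjusted p = 0.753) and 0.05 without KO 2. Chrm2, a Gi-coupled autoreceptor of cholinergic terminals, was listed at 0 in 11 libraries and at 1 count in HxD 4. Chrm3 held 3 to 11 counts in each library. Chrm5 had 8, 1, 10 and 0 counts in WT 1 to 4 and 23, 0, 23 and 0 in HxD 1 to 4. In KO 1 to 4 it had 0, 3, 2 and 0 counts.

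Nicotinic subunits were dominated by Chrnb2 and Chrna4, which assemble with each other. Chrnb2 had 89.5, 104, 104 and 76.0 CPM in WT 1 to 4. It had 117, 92.7, 103 and 86.7 CPM in HxD 1 to 4, and 87.2, 86.7, 83.2 and 87.3 CPM in KO 1 to 4. The KO libraries lay very close together inside the WT range, and HxD 1 was the highest of the 12. Log2 fold changes were 0.10 ± 0.12 in HxD against WT (95% interval -0.16 to 0.36), -0.11 ± 0.12 in KO against WT (-0.37 to 0.14) and -0.21 ± 0.12 in KO against HxD (-0.47 to 0.04). Changes of 2-fold in either direction thus lay outside each interval. Without HxD 1 and HxD 3 the values in HxD against WT and in KO against HxD were both -0.06. Without HxD 1 alone they were 0.01 and -0.14, and in KO against WT the value ran from -0.21 without WT 4 to -0.06 without WT 3. Chrnb2 overlaps Adar in RefSeq.

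Chrna4 had 61.7, 70.1, 78.0 and 67.8 CPM in WT 1 to 4, 54.2, 70.4, 41.0 and 63.9 CPM in HxD 1 to 4, and 57.4, 61.3, 79.99 and 59.96 CPM in KO 1 to 4. HxD 3 was the lowest and KO 3 the highest, and the groups overlapped. Its fitted log2 fold change in HxD against WT was -0.27 ± 0.17 (edgeR adjusted p = 0.999), and -0.06 without HxD 1 and HxD 3. Chrna7, which forms channels of a single subunit type with high calcium permeability, had 15.1, 21.4, 17.6 and 13.7 CPM in WT 1 to 4, 31.2, 9.36, 20.3 and 25.5 CPM in HxD 1 to 4, and 13.4, 12.7, 12.6 and 18.4 CPM in KO 1 to 4. HxD held both the highest and the lowest library, HxD 1 and HxD 2. The log2 fold change in KO against HxD was -0.60 ± 0.32 (edgeR adjusted p = 0.506). Without HxD 2 it was -0.84, with an edgeR adjusted p of 0.143, and without HxD 1 and HxD 3 it was -0.29.

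Among the lower nicotinic subunits, Chrnb1 and Chrna1, known from muscle, passed the filter with WT means of 2.55 ± 0.884 and 0.809 ± 0.218 CPM, as did Chrna3 with 1.74 ± 0.788 CPM. Chrnb3 passed it with counts of 18, 49, 7 and 22 in WT 1 to 4, 6, 64, 0 and 35 in HxD 1 to 4, and 24, 26, 37 and 30 in KO 1 to 4. Its HxD libraries thus ran from 0 to the highest count of the 12. Chrna5, an accessory subunit of cortical layer VI receptors, did not pass the filter, with 0, 21, 7 and 31 counts in WT 1 to 4 and 5, 14, 0 and 6 counts in KO 1 to 4, and it was listed at 0 in all HxD libraries. Chrna10, an inner-ear subunit, was listed at 0 in all KO libraries and had at most 11 counts elsewhere. No fold is given against a group at 0, and at such counts neither gene's difference is resolved. Chrna3, Chrna5 and Chrnb4 lie within 50 kb of one another in RefSeq, and Chrna3 overlaps Chrna5. The family summed to 191 ± 22.0 CPM in WT, 190 ± 16.6 CPM in HxD and 177 ± 7.43 CPM in KO.

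The spread within genotypes differed widely among members. The coefficient of variation, averaged over the 3 genotypes, was 9.95% for Chrnb2, 15.7% for Adra2c, 16.0% for Chrna4, 16.3% for Htr5a and 19.0% for Chrm4. At the other end of the tested genes stood Htr2c with 83.9%, Adra1a with 77.5%, Htr4 with 73.4% and Chrnb3 with 68.1%. Htr1f, with 22.0% at a WT mean of 4.73 CPM, and Htr2c, with 51.7 CPM, show that the spread did not simply follow the level.

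**Figure D4:**
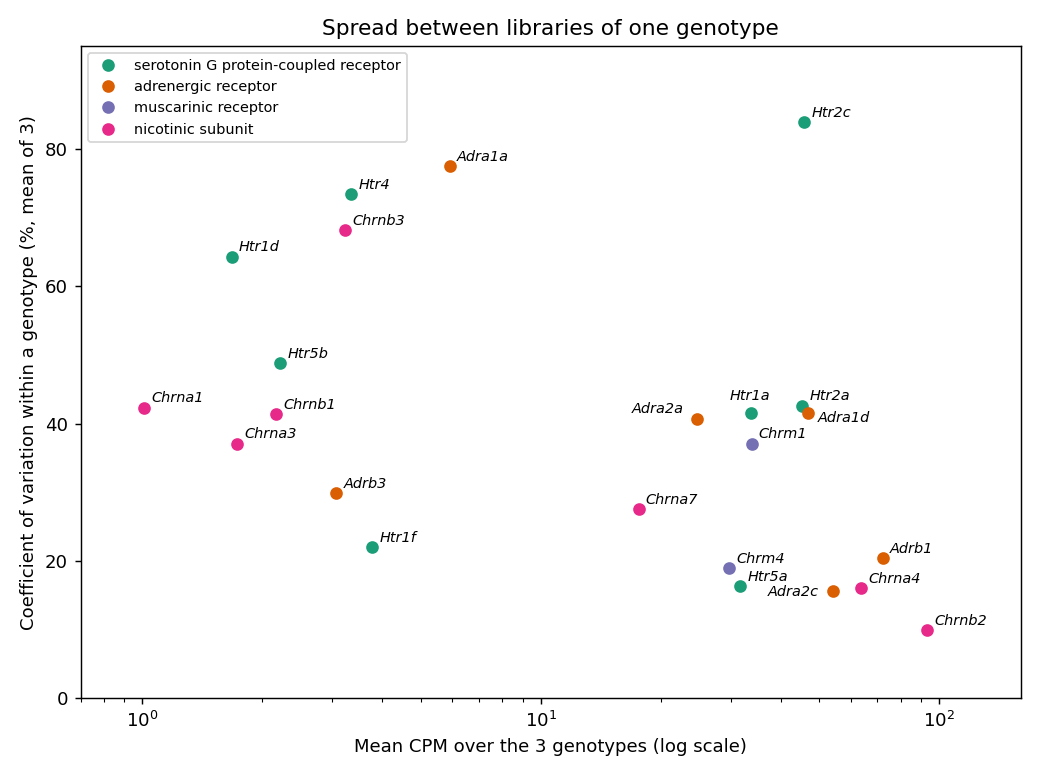
Mean within-genotype coefficient of variation (percent) of 23 of the 24 tested receptor genes against the mean of their 3 genotype means in CPM on a log axis, coloured by family. Chrnb2 is at the lower right with 9.95% and Htr2c at the upper right with 83.9%.

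The genes around the receptors were followed as 6 lists. None of their tested members passed the edgeR test in any comparison, in either direction: 0 of 10 G protein alpha subunits, 0 of 20 effectors, 0 of 15 receptor kinases, arrestins and RGS proteins, 0 of 6 accessory proteins of nicotinic receptors, 0 of 10 genes of transmitter synthesis, transport and breakdown, and 0 of 6 dopamine and histamine receptors. At an unadjusted p below 0.05 the lists held 0, 1, 1, 0, 1 and 0 genes in HxD against WT, where 4.05% of all tested genes did. They held 1, 1, 3, 0, 1 and 0 in KO against WT (9.48% of all genes) and 3, 4, 7, 0, 3 and 1 in KO against HxD (11.6% of all genes). Median log2 fold changes in KO against WT were -0.05 for alpha subunits, -0.25 for effectors, -0.24 for the desensitisation list, -0.08 for accessory proteins and -0.20 for both the transmitter list and the dopamine and histamine receptors. In the same order of lists they were -0.05, -0.19, 0.07, -0.06, 0.01 and 0.23 in HxD against WT, and 0.01, -0.22, -0.18, -0.09, 0.13 and -0.55 in KO against HxD.

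Maob, which breaks down monoamines, had 47.8 ± 6.18 CPM in WT, 31.3 ± 6.35 CPM in HxD and 42.6 ± 3.55 CPM in KO. Its log2 fold change in HxD against WT was -0.61 ± 0.15 (edgeR unadjusted p = 0.00185, adjusted p = 0.173). Prkaca, the main catalytic subunit of protein kinase A, had 309 ± 32.7 CPM in WT, 322 ± 12.8 CPM in HxD and 262 ± 14.7 CPM in KO, with a log2 fold change of -0.30 ± 0.08 in KO against HxD (edgeR adjusted p = 0.18). For Gnaq, the alpha subunit that couples Gq receptors to phospholipase C, these levels were 439.7 ± 22.2, 424 ± 25.1 and 374 ± 26.5 CPM, and the log2 fold change in KO against WT was -0.23 ± 0.07 (edgeR adjusted p = 0.308). Each of these differences was several times its standard error and did not pass the adjustment over all genes.

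Genes taken here as markers of cells that make serotonin, noradrenaline or acetylcholine had few or no counts. The serotonin and noradrenaline transporters Slc6a4 and Slc6a2 were listed at 0 in all libraries, and Dbh, which makes noradrenaline, had at most 5 counts. Th and Slc18a3, also of the transmitter list, had at most 35 and 19 counts. Chat, which makes acetylcholine, had 0, 10, 9 and 0 counts in WT 1 to 4, 0, 21, 29 and 5 in HxD 1 to 4, and 0, 6, 0 and 4 in KO 1 to 4. Tph2, which makes serotonin in raphe neurons, had 5, 16, 4 and 39 counts in WT 1 to 4, 12, 19, 10 and 23 in HxD 1 to 4, and 24, 47, 73 and 29 in KO 1 to 4. In CPM the lowest KO value was 4.11 and the highest WT value 3.91, so all KO libraries lay above all WT libraries on that scale. They also lay above all HxD libraries, whose highest value was 2.47 CPM. Of all tested genes, 7.2% were without overlap in KO against WT and 7.59% in KO against HxD. Its log2 fold change in KO against WT was 1.82 ± 0.62 (edgeR adjusted p = 0.373), and in KO against HxD it was 1.68 ± 0.62 (0.342).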

How the data were processed

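Whole cortex of adult mice was measured in 12 poly(A) RNA-seq libraries, grouped by the genotype in the labels (WT, HxD and KO). The deposited table holds whole-number estimated counts per gene symbol, which the authors left without normalization. Per the submitters' processing notes, StringTie 2.2.3, STAR 2.7.1a, SAMtools 1.9, Trim Galore 0.6.7 and FastQC were used, and GRCm39 and mm10 are both named, with no role. The sources used here do not state gene assignment, annotation or strand setting. Of 21738 symbols, 25 stood on several rows and were left out, and 5149 of the 21769 rows were 0 in every library. Receptor genes and gene lists were chosen with earlier results of these data known.

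CPM values were computed here from the summed counts of the tested genes times the TMM factor (0.968 to 1.02), and CPM per kilobase used the longest GENCODE M21 transcript. Promoter sequences and gene overlaps came from RefSeq on GRCm38.p6, and no coordinates were taken from the count table. Genes were tested two-sided by edgeR 4.0.16 in R 4.3.3, with the robust quasi-likelihood F test, after filterByExpr at a minimum count of 10. It fitted genotype over all 12 libraries with 9 residual degrees of freedom and adjusted p by Benjamini-Hochberg over 11693 genes at 0.05. Standard errors and 95% intervals follow from the F statistic and its degrees of freedom. The code was tested on simulated data. Totals limit counting error only, since copies of a molecule made by PCR were not marked. Within genotypes, log2 CPM of library pairs correlated at 0.869 to 0.909 (Pearson), and no libraries had identical values.

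Values in every library are given for the 6 receptor genes with the smallest p in each comparison, the 10 highest in WT and rows that jump from 0 to at least 100 counts. Other genes named by library were chosen after their values were seen. Up to 2 genes per list and comparison, those with the smallest p, were open to naming. The values of 1 tested receptor gene are not reported here, though it enters the counts and sums. Alternatives were other size factors, DESeq2 1.42.0, limma-voom (limma 3.58.1), no filter, a block for the replicate number, only the 8 libraries compared, each library left out, and, added after the data were seen, HxD 1 and HxD 3 left out together.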

Additional observations from a re-analysis of the deposited data

Results flagged for a closer look

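In 102 groups of 4 libraries, 11 had 1 library far from the other 3 by Dixon's criterion at its 95% level, of which chance gives about 1 in 20 groups. Among receptor genes, Htr2a was at 112.1 CPM in WT 2 against 31.1 to 38.9 CPM in the other WT libraries. Chrna7 was at 18.45 CPM in KO 4 against 12.6 to 13.4 CPM, and Chrna3 at 2.246 CPM in KO 3 against 1.20 to 1.37 CPM. Chrnb2 was at 83.2 CPM in KO 3 against 86.7 to 87.3 CPM, a small gap in a group with almost no spread.

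Among sums of markers, HxD 1 stood apart with 278.6 CPM of choroid plexus markers (other HxD libraries 5.66 to 35.9) and 310.3 CPM of hippocampal markers (17.9 to 39.6). WT 1 had 42.09 CPM of choroid plexus markers (6.38 to 9.84) and 1341 CPM of interneuron markers (1616 to 1660). WT 3 had 679.6 CPM of striatal markers (406 to 425), and WT 4 had 4646 CPM of oligodendrocyte markers (1964 to 2036). WT 2, the library with high Htr2a, had 474.6 CPM of microglial markers (528 to 538). The part of these sums in the receptor values was not tested.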

How the results depend on the processing

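No receptor gene passed the threshold under any of the 19 alternatives set out first or without HxD 1 and HxD 3, in any comparison. The lowest adjusted p anywhere was 0.297 in HxD against WT (Chrna5, without WT 1), 0.309 in KO against WT (Htr1f, DESeq2) and 0.143 in KO against HxD (Chrna7, without HxD 2). Of 459 alternative values of 23 fold changes, 451 kept their direction and 8 did not. Some of these values could hardly change, since leaving out a library of the genotype outside a comparison scarcely moves its fold change. Htr2c in HxD against WT (log2 0.29) was -0.068 by limma-voom, -0.019 with the replicate block, -0.39 to 0.66 with single libraries left out (lowest without HxD 3) and -1.40 without HxD 1 and HxD 3. Without those 2 libraries, Htr2c in KO against HxD was 0.20, Htr4 was -0.29 in HxD against WT and 0.90 in KO against HxD, and Chrnb2 in HxD against WT was -0.065. WT 1 and WT 3, the highest WT libraries for Htr2c and Htr4, stayed in that fit. The cause of these changes of direction was not tested.

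Among all genes, DESeq2 called 172 in HxD against WT, where edgeR called 105. It called 288 in KO against WT (18 by edgeR) and 396 in KO against HxD (119 by edgeR). In KO against WT, limma-voom called 0 and a fit of only the 8 libraries compared called 0, with 1145 and 1171 genes at an unadjusted p below 0.05. There the count was 1 without HxD 1 and HxD 3, and 12 to 35 with single libraries left out (35 without WT 4). The median of the receptor genes in KO against HxD was 0.00 over the 27 tested without HxD 3, against -0.15 over 24.

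Same-numbered replicates showed no consistent pairing. Deviations of the 12 same-numbered pairs correlated at -0.07 to 0.08, and 4 libraries correlated best with their own number. Between WT and HxD, however, each odd-numbered library correlated negatively with each even-numbered one. These values ran from -0.118 (WT 3 with HxD 4) to -0.011 (WT 3 with HxD 2). Other pairs of a WT and an HxD library ran from -0.014 (WT 2 with HxD 2) to 0.078 (WT 3 with HxD 3). What sets odd and even replicates apart was not tested. With the replicate block, 74, 5 and 95 genes were called, and 0 receptor genes. The 19 receptor genes below the filter, 5 of them at 0 throughout, were not tested in the main edgeR fit. Some were tested in alternatives, where 27 or 28 receptor genes passed with a single library left out and 38 were tested with no filter. Htr4 and Htr1d rest on at most 121 counts in a library. Single libraries also moved Htr5a in HxD against WT to -0.23 (without HxD 3), Chrna4 there to -0.15 (HxD 3), Chrm4 in KO against HxD to 0.30 (HxD 1) and Chrna7 there to -0.37 (HxD 1). Gapdh, listed at 0 throughout, shows that a listed 0 need not mean an absent transcript.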

Other observations

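Some G protein regulators next to the receptors were listed at 0 in a whole genotype, and the share of all rows listed so was not counted. Rgs6, which speeds the turn-off of Gi and Go, was at 0 in each HxD library and had 111, 3, 42 and 2 counts in WT 1 to 4 and 18, 20, 10 and 20 in KO 1 to 4. Rapgef3, a cyclic AMP sensor, was likewise at 0 throughout HxD, with 74, 15, 0 and 24 counts in WT and 21, 0, 16 and 34 in KO. Arrb1, an arrestin that uncouples receptors from G proteins, was listed at 0 in all KO libraries and had 26, 14, 3 and 72 counts in WT and 25, 43, 0 and 797 in HxD. None of these rows passed the edgeR test, and each also had a WT or HxD library at 3 counts or fewer. Rgs6 was without overlap in HxD against WT and in KO against HxD, and Arrb1 in KO against WT. Of all tested genes, 3.48%, 7.59% and 7.2% were without overlap in these comparisons. Grk5, a receptor kinase, had 42.2 ± 8.29 CPM in WT, 41.0 ± 7.85 CPM in HxD and 29.1 ± 3.51 CPM in KO, with a log2 fold change of -0.54 ± 0.18 in KO against WT (edgeR adjusted p = 0.354).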
